A study of Macaca fascicularis with 44 samples.

Results

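The 64 genes described here had a mean level at least 8 times higher in cultured brain endothelial cells of the cynomolgus monkey than in freshly isolated brain microvessels, and a mean near that level after the cells were re-plated. They were selected from the deposited FPKM values (fragments counted per gene, scaled to gene length and library size) of 28623 gene identifiers. A gene was a member when its mean in cortical P0D7 cells was at least 2 FPKM and at least 8 times its mean in cortical P0D0 microvessels, and its mean in cortical P1D7 cells lay between 0.67 and 1.5 times the P0D7 mean. Since these cortical values chose the members, the change with culture is given as a description, without a test.

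The 44 RNA-seq libraries came from Macaca fascicularis of both sexes, with no genetic modification and no drug comparison. Animals became available after pre-clinical studies, whose agents are not given in the sources used here. The paper states that a washout of at least a month came before cortical microvessels were isolated. P0D0 (8 libraries, cortex) is the vascular fraction released by enzymatic digestion and gradient centrifugation, taken at day 0, before any culture. P0D7 cells grew from such fractions for 7 days in EBM-2 medium with the EGM-2 MV supplements, with puromycin used to select endothelial cells, and were sampled from cortex (8), brainstem (6), hippocampus (7), striatum (7) and cerebellum (2). P1D7 cells (6 libraries, cortex only) were detached from P0D7 cultures and grown for 7 further days on new plates. P0D0 microvessels can hold other cell types beside endothelium, so in these bulk libraries fewer cells of a type and less RNA per cell cannot be told apart. A BBB number in each sample title, with 10 different numbers in all (27 to 32 and 35 to 38), was taken to name the preparation, and links libraries of different fractions and structures.

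Brain endothelial cells form the blood-brain barrier through tight junctions, low vesicular traffic and polarized transporters, and signals from pericytes, astrocytes and the basement membrane help to maintain that state. When microvessels are dissociated and grown on a coated plastic surface in medium with serum and growth factors, endothelial cells spread, divide and remodel their cytoskeleton and matrix, and many lose part of their barrier programme. Genes that come on in this setting are therefore of interest both as marks of culture and as features of the in vitro barrier model. The deposited tables name genes by Ensembl identifier only, and 0 of the 28623 identifiers could be matched to the reference gene table used here. The members are therefore identified by number or by their rank, from 1 to 64, in mean FPKM over the 22 P0D7 libraries outside cortex, which played no part in the selection. No role can be stated for any of them, and markers of endothelial and other cell types could not be read, so the labelled cell type was not tested.

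Total counts ran from 8600889 to 10738453 in P0D0 libraries, from 15513781 to 23138726 in cortical P0D7 libraries and from 17150398 to 19849831 in P1D7 libraries. In the P0D7 libraries outside cortex they ran from 8633089 to 24450445, the lowest being hippocampus replicate 3. Levels of low members were thus measured on fewer fragments in P0D0 than in culture. Of the 64 members, 51 had a count in all 8 P0D0 libraries, 8 had under 20 counts over the 8 libraries together, and 1 had none.

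Of all identifiers, 278 met the conditions on the P0D7 level and rise. Among them 64 were kept, 177 fell below 0.67 times their P0D7 mean after re-plating, and 37 exceeded 1.5 times that mean. Among the 63 members with a P0D0 level above 0, the P0D7 mean was between 8.10 and 90.5 times the P0D0 mean, with a median of 12.6. The rise reached 16-fold in 23 members and 32-fold in 11. The member absent from P0D0, ENSMFAG00000033115, averaged 2.30 FPKM at P0D7, at least 15.7-fold higher than the level that 3 counts over the 8 P0D0 libraries would give. The ratio of P1D7 to P0D7 had a median of 1.03, with 35 members above 1, 29 below 1 and 31 within 20% of 1. Over all genes that reached 1 FPKM in 50% or more of the libraries of any cortical fraction, the median log2 ratio of P1D7 to P0D7 was -0.18, against 0.04 in the members. Scaling the counts by TMM (trimmed mean of M values, which sets the bulk of the genes equal) shifted these medians to -0.03 and 0.19. The size of the P1D7 ratio thus depends on the scaling. The gap between members and all genes is a description, since the limits of 0.67 and 1.5 hold the member ratios near 1. Rescaling whole libraries also moves both medians alike, so a similar gap under both scalings is no finding.

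**Figure D1:**
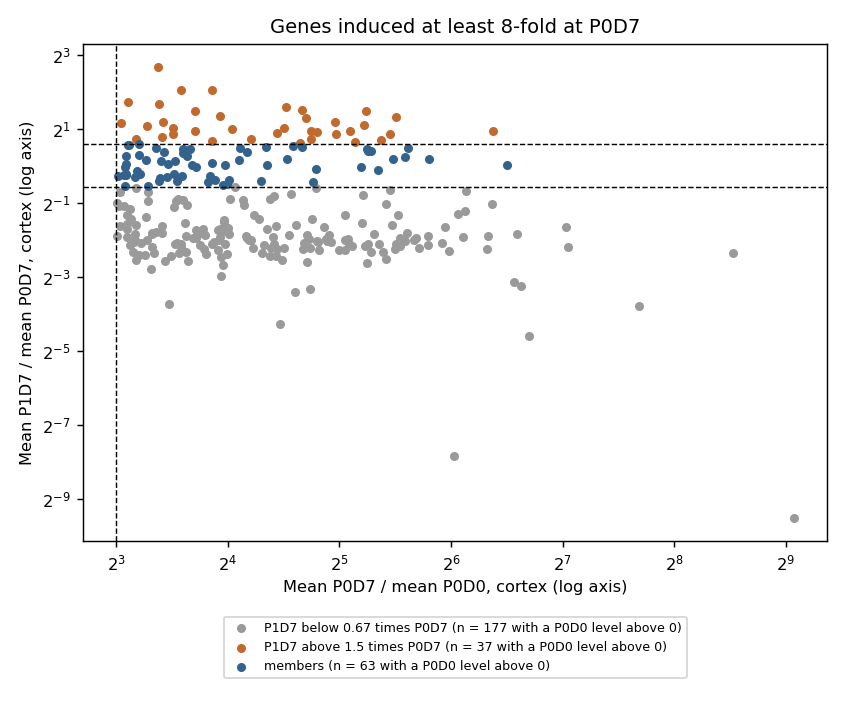
Ratio of mean P0D7 to mean P0D0 FPKM (x, log axis) against ratio of mean P1D7 to mean P0D7 FPKM (y, log axis) in cortex, 1 point per gene, for the genes that rose at least 8-fold and had a P0D0 level above 0. Dashed lines mark the limits of 8, 0.67 and 1.5, and the 63 members plotted fill the band between the horizontal lines, most of them at the lower end of the rise, with a median of 12.6-fold.

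Several members lay close to a limit. The member with the lowest P0D7 mean had 2.01 FPKM, and the nearest gene excluded by level alone had 1.72 FPKM. The smallest rise among members was 8.10-fold, and the largest rise excluded was 7.95-fold. At the lower limit of the P1D7 ratio the nearest values were 0.6710 inside and 0.6696 outside, and at the upper limit they were 1.497 inside and 1.545 outside.

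The members spanned a wide range of levels. Their P0D7 means in cortex ran from 2.01 to 968 FPKM with a median of 19.8, and 12 of them reached 100 FPKM, 36 lay between 10 and 100 FPKM and 16 lay below 10 FPKM. In P0D0 the median of the member means was 1.87 FPKM, the highest was 55.8 FPKM, and 27 members averaged under 1 FPKM. In P1D7 the median was 24.2 FPKM. The levels of the members summed to between 293 and 424 FPKM in the P0D0 libraries, with a median of 345, and took 0.0625% to 0.0963% of all counts. In cortical P0D7 libraries the lowest, median and highest sums were 3865, 5219 and 6279 FPKM, and in P1D7 libraries 4647, 5355 and 7156 FPKM. The share of counts was 0.772% to 1.40% at P0D7 and 1.08% to 1.84% at P1D7. P0D7 and P1D7 libraries overlapped in the summed level, and both lay far above the P0D0 libraries.

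**Figure D2:**
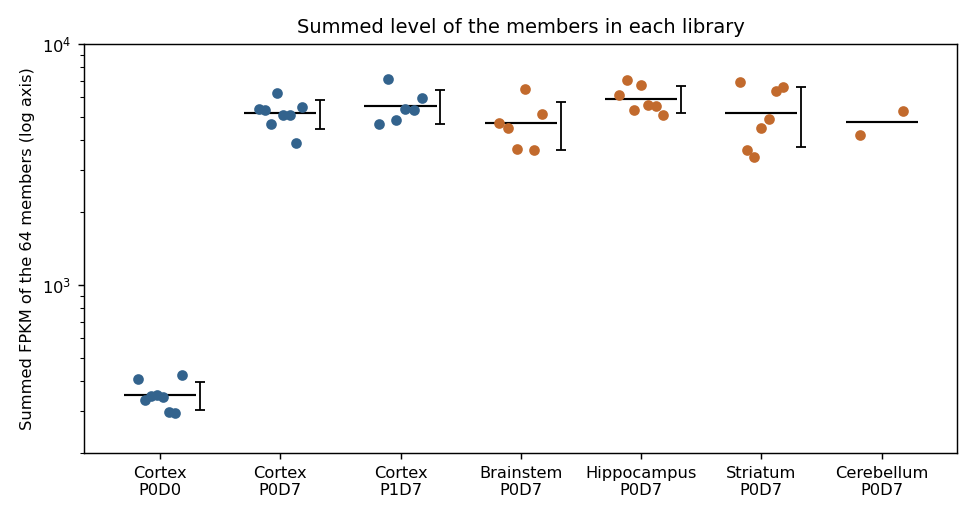
Summed FPKM of the 64 members (y, log axis) in each of the 44 libraries, by group (x), with blue points for cortex and orange points for the other structures. Horizontal bars are group means and error bars are the SD for groups of 6 to 8 libraries. P0D0 libraries lie between 293 and 424 FPKM, and every cultured library has at least 3395 FPKM.

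A small number of members carried much of this sum. ENSMFAG00000041064, ranked 1, had 15.8, 22.1 and 41.7 FPKM (lowest, median and highest) in the 8 P0D0 libraries. It had 418, 982 and 1431 FPKM at P0D7 in cortex and 803, 1225 and 2315 FPKM at P1D7. All cultured cortical libraries exceeded all P0D0 libraries, and those of P0D7 and P1D7 overlapped. It contributed 18.4% ± 3.4 (SD, n = 8) of the summed level at P0D7 and 22.6% ± 5.8 (SD, n = 6) at P1D7, against 7.25% ± 2.74 (SD, n = 8) in P0D0.

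ENSMFAG00000036985, ranked 2, had 22.2, 33.7 and 50.8 FPKM in P0D0, 475, 696 and 970 FPKM at P0D7 and 403, 816 and 932 FPKM at P1D7. Its P1D7 mean was 1.02 times its P0D7 mean, and the ratio stayed within the limits in each of the 6 preparations with both fractions. The member ranked 3 was the highest in P0D0, at 55.8 ± 8.6 FPKM (SD, n = 8), and had 471 ± 82 FPKM (SD, n = 8) at P0D7. The 3 top members made up 41.5% ± 3.4 (SD, n = 8) of the summed level at P0D7, so 61 members shared the rest.

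Most members were separated from P0D0 library by library. In 59 of 64 members every cortical P0D7 library exceeded every P0D0 library, against 22.3% of all genes, and in 62 of 64 every P1D7 library did, against 22% of all genes. These counts follow from the selection and are given only to show the spread. The 5 members that overlapped at P0D7 ranked 30, 57, 58, 61 and 63. In none of the 64 did P0D7 and P1D7 libraries separate in either direction, against 10.3% of all genes, a condition that the selection also favours.

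Outside cortex, in 22 libraries that the selection did not use, the members were also high at P0D7. In 55 of 64 members all 22 libraries exceeded all P0D0 libraries of cortex, against 19.2% of all genes. Since the P0D0 libraries used for this comparison are those that chose the members, the count is a description. The mean was at least 8 times the cortical P0D0 mean for 51 members in brainstem, 58 in hippocampus, 56 in striatum and 53 in cerebellum, and 49 members reached it in brainstem, hippocampus and striatum together. All 64 reached at least 4 times the P0D0 mean in these 3 structures. Microvessels of the other structures were not analysed here at P0D0, so their own starting level is unknown.

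The summed level had a lowest, median and highest value of 3629, 4605 and 6516 FPKM in brainstem and 5049.6, 5605 and 7121 FPKM in hippocampus. In striatum these values were 3395, 4868 and 6971 FPKM, and the cerebellum libraries had 4185 and 5280.1 FPKM. Every structure overlapped cortex. By single members, the mean lay between 0.67 and 1.5 times the cortical P0D7 mean for 54 members in brainstem, 52 in hippocampus, 61 in striatum and 39 in cerebellum. Cerebellum, with 2 libraries, had 20 members below 0.67 times cortex and 5 above 1.5 times. Its 2 libraries often differed, as for ENSMFAG00000036985, which had 122 and 963 FPKM there.

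**Figure D3:**
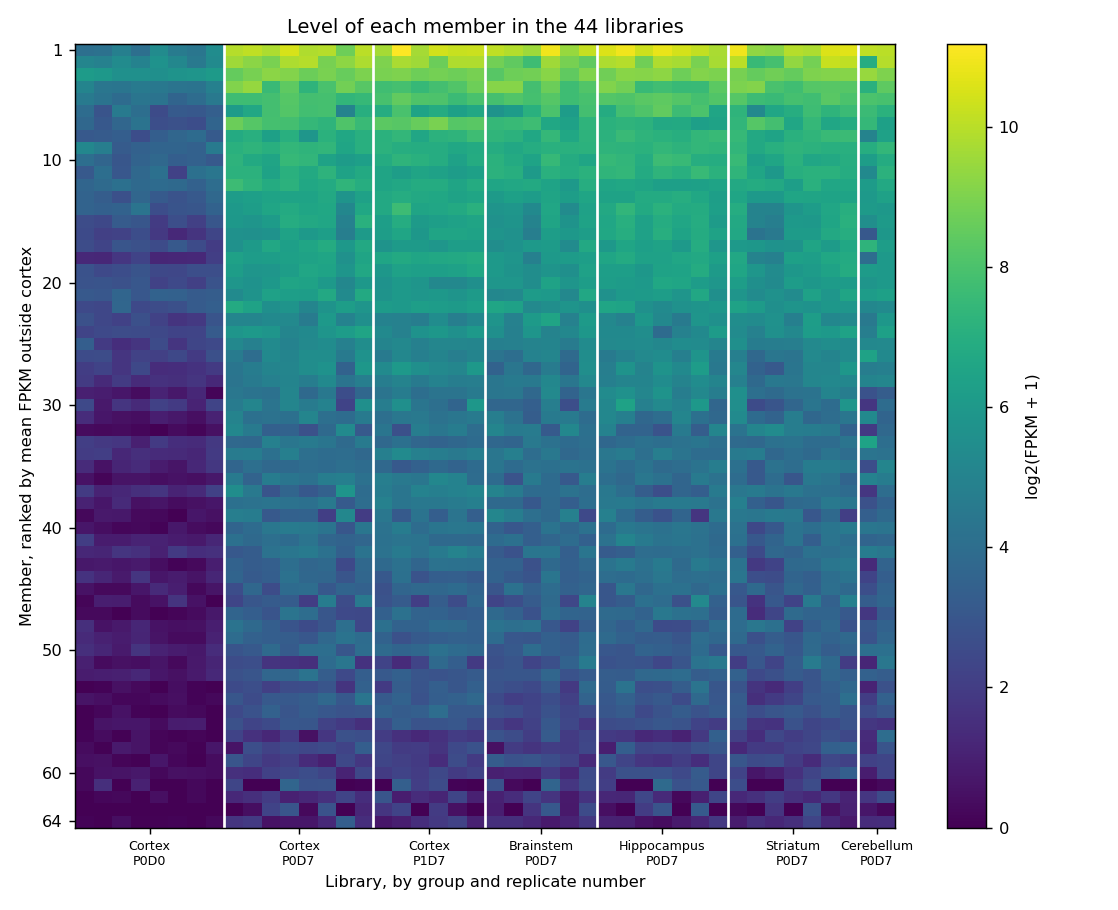
Level of each of the 64 members (y, ranked by mean FPKM over the 22 P0D7 libraries outside cortex) in each of the 44 libraries (x, by group and replicate number), as log2(FPKM + 1) on a colour scale. The 8 P0D0 libraries on the left are darker than nearly all cultured libraries in most rows. The cultured libraries of all structures share the same gradient, with dark gaps in the rows ranked 61 and 63, where some are as dark as P0D0.

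The top member was similarly high in all structures. ENSMFAG00000041064 had 707, 1034 and 1972 FPKM in brainstem, 872, 1397 and 1946 FPKM in hippocampus and 590, 978 and 1934 FPKM in striatum, and 1049 and 1106 FPKM in the cerebellum libraries. By mean the order was hippocampus, striatum, brainstem, cerebellum and cortex, and the ranges of neighbouring structures overlapped at each step. ENSMFAG00000036985 had 208, 395 and 767 FPKM in brainstem, 437, 846 and 962 FPKM in hippocampus and 181, 653 and 1189 FPKM in striatum, again with overlap.

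The mean over libraries hid differences between preparations. In the 6 preparations with all cortical fractions, 45 to 62 members rose at least 8-fold within the preparation, and the median rise ran from 10.2-fold in preparation 35 to 17.6-fold in preparation 36. In 23 members the rise reached 8-fold in all 6 preparations, in 18 in 5 and in 18 in 4. All 64 members rose at least 4-fold in preparations 30 and 32, and 60 to 63 in the other 4.

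The retention after re-plating was less even. Within single preparations the P1D7 to P0D7 ratio lay between 0.67 and 1.5 for 51 members in preparation 30, 44 in 29, 42 in 32, 42 in 36, 40 in 31 and 29 in 35. In preparation 35, 24 members exceeded 1.5 and the median ratio was 1.23, whereas the median of the other 5 preparations lay between 0.955 and 1.08. Each such ratio sets a single P1D7 library against a single P0D7 library. The cortical P0D7 library of preparation 35 had the lowest total count (15513781) and summed level (3865 FPKM) of its group, and its P1D7 library had 5345 FPKM. Whether that P0D7 library or the re-plating set these ratios was not tested. Only 9 members were within the limits in all 6 preparations, namely those ranked 2, 3, 5, 9, 10, 25, 28, 36 and 41. A further 15 were within them in 5 preparations, 19 in 4, 9 in 3 and 6 in 2.

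The other 6 members met the condition on average while staying within it in at most 1 preparation. The member ranked 37 had ratios of 3.84, 1.65, 4.00, 2.70, 0.55 and 2.27 in preparations 29, 30, 31, 32, 35 and 36, so it rose in 5 and fell in 1. Its P0D7 levels in cortex were 6.57, 13.0 and 54.2 FPKM (lowest, median and highest, n = 8), and its P1D7 levels were 19.2, 28.7 and 32.6 FPKM (n = 6). The members ranked 32, 39 and 48 behaved alike in preparation 29, 31 and 36, with ratios of 1.75 to 4.40, and in preparation 35, with ratios of 0.53 to 0.84. For these 4 members, "kept" describes the mean and not the course within a preparation.

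No library of brainstem, hippocampus or striatum entered the selection, although they share preparation codes with the cortical libraries that did. Differences among these 3 structures were tested with the quasi-likelihood F test of edgeR over 12114 genes in the 30 P0D7 libraries, with genes called where the change reached 1.5-fold and the p adjusted by Benjamini-Hochberg was 0.05 or less. All 64 members passed the filter of at least 1 FPKM in at least 3 libraries. Without a term for the preparation, 0 members and 0 genes (0% of those tested) were called in any of the 3 comparisons. At an unadjusted p of at most 0.05, 17 of 64 members (26.6%) passed for brainstem minus hippocampus, against 11.4% of all genes. For striatum minus hippocampus 2 members passed (3.12%, against 4.8% of all genes), and for brainstem minus striatum 1 (1.56%, against 1.27% of all genes). DESeq2 called 0 members in each comparison and 8, 4 and 0 genes.

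Members tended to lie lower in brainstem than in hippocampus. The log2 fold change was below 0 in 48 of 64 members, with a median of -0.29, against 5935 of the 12114 genes tested, with a median of 0.01. For striatum minus hippocampus it was below 0 in 48 members, with a median of -0.20, against 6149 of all genes, with a median of -0.0034. For brainstem minus striatum it was below 0 in 41 members, with a median of -0.08, against 5811 of all genes, with a median of 0.0055. Of the 177 induced genes that fell after re-plating, the change was below 0 in 161, 157 and 155, in the same order of comparisons. Among the 37 that rose further it was below 0 in 23, 19 and 26. Both comparisons with hippocampus share its libraries, and the 3 comparisons are not independent. Some members also vary together, so counts of members are not counts of separate observations.

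The preparation codes pair brainstem and hippocampus libraries in 6 preparations. In 30 of 64 members (46.9%) the FPKM was lower in brainstem in all 6, against 17.6% of all genes tested. It was higher in all 6 in 7 members (10.9%), against 14.2% of all genes. Leaving out each preparation in turn, 30 to 34 members were lower in brainstem in all others, against 19.0% to 21.8% of all genes. A gene lower in all 6 preparations stays so when any is left out. These counts could therefore not fall, and they are no check of the result. The summed level was lower in brainstem in each of the 6 preparations, by 4494 against 7121 FPKM in preparation 28 and by 6516 against 6787 FPKM in preparation 30. The same direction prevailed in induced genes that were not members. Of the 177 genes that fell after re-plating, 95 (53.7%) were lower in brainstem in all 6 preparations, and of the 37 that rose further, 13 (35.1%).

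**Figure D4:**
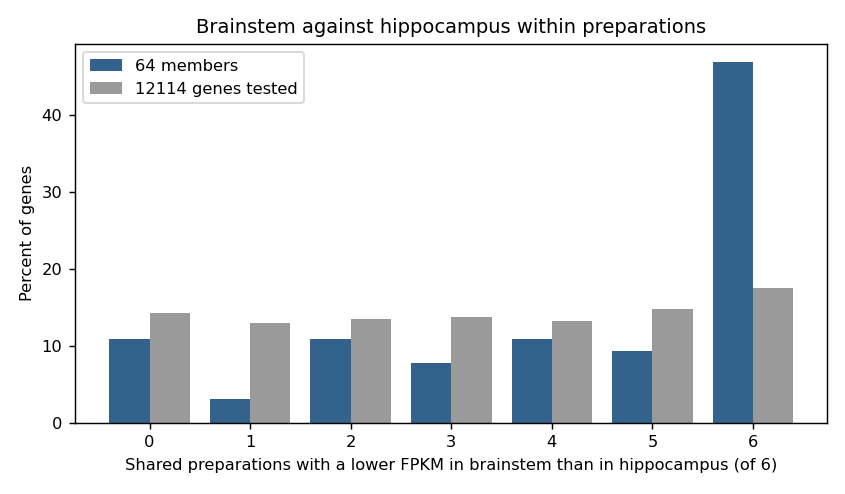
Percent of genes (y) by the number of the 6 shared preparations in which the FPKM was lower in brainstem than in hippocampus (x), with blue bars for the 64 members and grey bars for the 12114 genes tested. The bar of members lower in all 6 preparations reaches 46.9%, against 17.6% of all genes.

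With the preparation as a block in the edgeR model, 12 members (18.8%) were called for brainstem minus hippocampus, against 4.4% of all genes. In the same fit, 8 of the 37 induced genes that rose further (21.6%) and 9 of the 177 that fell (5.08%) were called, so the higher share was not particular to the members. An unadjusted p of at most 0.05 was found in 37 members (57.8%), against 33.2% of all genes. Of the 12 called, 10 were lower in brainstem (2.11% of all genes were called lower) and 2 were higher (2.29% of all genes). The lower members ranked 14, 15, 27, 29, 30, 38, 41, 44, 58 and 60, and their log2 fold changes ran from -0.62 to -1.59. The higher members ranked 57, with a log2 fold change of 1.07, and 59, with 0.59. The count rested on single libraries. It was 0 without brainstem replicate 1, 3, 4 or 5 or hippocampus replicate 2 or 3, it was 1 without hippocampus replicate 4 or 6, 2 without hippocampus replicate 5 and 5 without brainstem replicate 2, and it was 10 to 13 without any of the other 3 libraries. The median log2 fold change of the 64 members stayed between -0.27 and -0.34 in these fits. DESeq2 with the same block called 20 members and 758 genes. With the block, 0 members were called for striatum minus hippocampus and brainstem minus striatum, where 4 genes (0.033%) and 0 genes were called by edgeR. In the same order, 21 members (32.8%, against 18.6% of all genes) and 3 members (4.69%, against 3.94%) had an unadjusted p of at most 0.05. DESeq2 with the block also called 0 members in both comparisons.

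In the fit without the block, the member with the smallest p among those lower in brainstem was ENSMFAG00000020823, ranked 38. It had 7.39, 13.1 and 15.4 FPKM in the 6 brainstem libraries and 17.7, 22.2 and 23.3 FPKM in the 7 hippocampus libraries. The groups did not overlap, as in 4 of 64 members against 0.264% of all genes. Its log2 fold change was -0.83 ± 0.24 (SE), with an adjusted p of 0.303 by edgeR without the block, and -0.87 ± 0.23 with the block, with an adjusted p of 0.0297. With the block and each of the 13 libraries left out in turn, the call was lost in 9 fits, where the adjusted p ran from 0.0546 to 0.0777, and the log2 fold change stayed between -0.81 and -0.95. Striatum libraries of this gene ran from 6.84 to 27.3 FPKM and covered both ranges. In P0D0 its lowest, median and highest levels were 0.299, 0.560 and 1.54 FPKM, and in P1D7 they were 19.1, 22.8 and 29.4 FPKM.

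In the opposite direction the smallest p in the fit without the block belonged to ENSMFAG00000036382, ranked 23, with 28.96, 59.9 and 90.5 FPKM in brainstem and 23.3, 36.6 and 60.2 FPKM in hippocampus. Its ranges overlapped, and its log2 fold change of 0.45 ± 0.27 (SE) did not pass the test (edgeR, adjusted p of 0.519, and 0.138 with the block). It was also the higher member with the smallest p for brainstem minus striatum, at 0.34 ± 0.27 (edgeR, adjusted p of 1.00).

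For striatum minus hippocampus, the members with the smallest p were ENSMFAG00000044494, ranked 7, at 0.52 ± 0.28, and ENSMFAG00000010683, ranked 41, at -0.52 ± 0.21 on the log2 scale, both with an adjusted p of 0.849 by edgeR. ENSMFAG00000044494 had 96.5, 165 and 295 FPKM in striatum and 77.9, 110 and 154 FPKM in hippocampus. ENSMFAG00000010683 had 7.56, 15.4 and 18.6 FPKM in striatum and 13.1, 18.2 and 31.7 FPKM in hippocampus. Both pairs of ranges overlapped. The lower member with the smallest p for brainstem minus striatum was ENSMFAG00000046599, ranked 55, with 3.88, 5.04 and 6.01 FPKM against 5.31, 6.80 and 8.35 FPKM, and a log2 fold change of -0.45 ± 0.17 (edgeR, adjusted p of 1.00).

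Against cortex, the log2 fold change of the members had a median of -0.11 in brainstem, 0.16 in hippocampus, -0.03 in striatum and -0.28 in cerebellum. The cortical P0D7 libraries helped to choose the members, so these values are descriptive. ENSMFAG00000044494 had a lower mean in each of the other structures than in cortex, and had 152, 232 and 407 FPKM in cortical P0D7 libraries. Its lowest, median and highest levels were 82.5, 162 and 209 FPKM in brainstem, and the cerebellum libraries had 81.0 and 173 FPKM. With hippocampus, where the highest library had 154 FPKM, only the lowest cortical library overlapped. This gene was pointed out for its difference from cortex after its values were seen.

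Expression of 1 member was present or absent by preparation. ENSMFAG00000039121, ranked 61 and chosen after its values were seen, had 2.41 to 13.5 FPKM in all 15 P0D7 libraries of preparations 27, 30, 31 and 32. It had at most 0.219 FPKM in all 15 P0D7 libraries of preparations 28, 29, 35 and 36. The cortical P1D7 libraries followed the same split, with 9.52, 3.20 and 4.83 FPKM in preparations 30, 31 and 32 and 0, 0.09 and 0 FPKM in preparations 29, 35 and 36. In P0D0 it was 1.88 FPKM in preparation 30 and 1.06 FPKM in preparation 32, and at most 0.17 FPKM in the other 6 libraries, preparation 31 among them at 0. Of the 12114 genes tested, 7 (0.0578%) showed such a split, defined by at least 1 FPKM in every P0D7 library of some preparations and under 0.3 FPKM in every P0D7 library of the others, with at least 2 preparations on either side. Its structure levels follow the preparations sampled, since both cerebellum libraries, at 0 and 0.167 FPKM, came from preparations 29 and 35. The 8.47-fold rise in its cortical mean compares P0D0 and P0D7 libraries of partly different preparations. Within preparations 30 and 32 the rise was 6.10-fold and 5.81-fold, below the limit of 8, and in preparation 31 it started from 0.

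**Figure D5:**
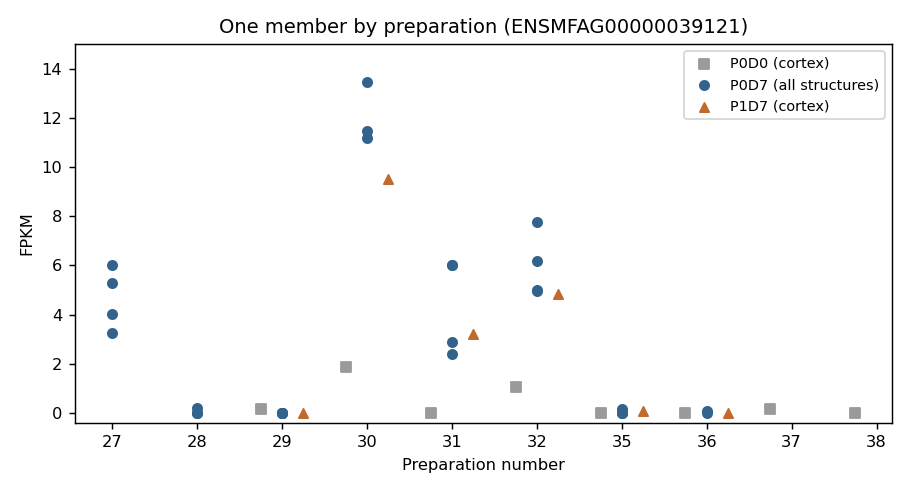
FPKM (y) of ENSMFAG00000039121 in each of the 44 libraries by preparation number (x), with grey squares for P0D0, blue circles for P0D7 of all structures and orange triangles for P1D7. The P0D7 and P1D7 libraries of preparations 27, 30, 31 and 32 lie between 2.41 and 13.5 FPKM, and those of preparations 28, 29, 35 and 36 lie at or near 0.

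ENSMFAG00000033115, ranked 63 and also singled out afterwards, was nearly as divided. It had no count in the 8 P0D0 libraries, and at P0D7 in cortex it had 3.70, 6.61 and 6.17 FPKM in preparations 29, 30 and 32, 1.38 FPKM in preparation 36 and at most 0.34 FPKM in the other 4. In brainstem it had 2.18, 7.46 and 4.93 FPKM in preparations 29, 30 and 32 and at most 0.89 FPKM elsewhere. The gene length implied by its counts and FPKM was 273 bases, so these levels rest on few fragments.

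The share of the variation at P0D7 between preparations was larger than that between structures, in the members as in the other genes. Over the 28 P0D7 libraries without cerebellum, the median share of the variance of log2 CPM between preparations was 51.3% in the members, 58.1% in all genes tested, 60.2% in the induced genes that fell and 62.3% in those that rose. The median share between structures was 17.0% in the members and 12.3% in all genes. The share between preparations exceeded that between structures in 57 of 64 members and in 11418 of the 12114 genes tested, and it reached 98.2% in ENSMFAG00000039121 and 92.9% in ENSMFAG00000033115. Among the other 7 members was ENSMFAG00000020823, with 20.9% between preparations and 32.4% between structures. The 2 shares are not additive because not every preparation gave every structure. A larger number of groups raises a share by itself, and these libraries hold more preparations than structures. Which of the 2 matters more was not tested.

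Genes in general, the members included, varied less among P1D7 than among P0D7 libraries of the same 6 preparations. The median coefficient of variation (SD over mean of the FPKM) was 48.3% in P0D0, 34.5% at P0D7 and 21.4% at P1D7, against 23.1%, 17.9% and 10.9% for the 9532 genes that averaged 2 FPKM or more in all cortical fractions. It was smaller at P1D7 than at P0D7 in 53 of 64 members (82.8%) and in 80.0% of the 9532 genes, and many members had low levels in P0D0, where counting error is large.

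The members did not vary as a single block. After removing the structure means, the mean correlation between pairs of members over the 30 P0D7 libraries was 0.17, against 0.00 for all genes tested. Of the 2016 pairs, 23.5% had a correlation above 0.5 and 5.06% below -0.5. These libraries share preparations, so the values describe the pattern only. The closest pair, ranked 16 and 43, reached 0.98, and the pair ranked 21 and 39 had the most negative value, -0.93. In all, 10 of the 64 members had a negative mean correlation with the others, among them the members ranked 32, 37, 39 and 48, whose retention differed between preparations. The member ranked 39 averaged 27.5, 21.05 and 20.7 FPKM over the P0D7 libraries of preparations 27, 28 and 35, and 9.78, 4.28 and 3.04 FPKM in preparations 30, 32 and 36.

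The lengths implied by counts and FPKM had a median of 1944 bases in the members and 2378 bases in all genes tested in the structures, and the shortest member had 204 bases. In 26 members the implied length differed by more than 5% between libraries with at least 20 counts, so for these genes the FPKM depends partly on how the authors' software assigned a length in each library. The member counts were whole numbers within 0.01 in all 64 members, while 214 of all identifiers had fractional counts.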

How the data were processed

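RNA-seq was read from 44 libraries, grouped by the structure and fraction in their labels. Both tables were made by the authors in ArrayStudio. Ribosomal, low-quality and short reads were discarded, the others were aligned with OSA4 to the Cyno.WashU genome, and read pairs were counted per gene of the Ensembl annotation. The deposited count table holds the authors' estimated counts without normalization, and the deposited FPKM table scales them to gene length and library total. The members and all lists were chosen with earlier results of these data known.

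Members, levels and ratios used FPKM. Structures were tested on rounded counts with edgeR 4.0.16 in R 4.3.3 (TMM, quasi-likelihood F test, all 30 P0D7 libraries, 12114 genes reaching 1 FPKM in 3 or more libraries), the test being checked on simulated counts. The simulated counts held no difference between preparations, so they do not check the fits under the pairing seen in the data. The SE beside an edgeR log2 fold change was derived from the test, as the absolute log2 fold change divided by the square root of F. DESeq2 1.42.0, other filters and normalizations, limma 3.58.1 on log2(FPKM + 0.5), a replicate block by preparation and libraries left out in turn were the alternatives. Labels do not say that libraries come from separate animals, so p-values cover only the spread among the libraries. Deviations from structure means correlated in every pair of libraries with the same code, at 0.55 or more for brainstem and hippocampus, 0.24 for striatum and hippocampus and 0.39 for brainstem and striatum, so the codes, which come from the labels, were taken to pair the samples. Named genes are the 2 highest outside cortex and, in each structure comparison, the member with the smallest p in each direction where none was called, and members called with the block are given by rank. Others are named as chosen afterwards, and the members nearest the limits are given by value. Counting error alone underlies the 3-count floor. The planned lists and markers needed gene symbols and were not run. Analyses used Python 3.11 with numpy and pandas.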

Additional observations from a re-analysis of the deposited data

Results flagged for a closer look

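Of the values named above, 3 were set apart from the rest of their group. The level of ENSMFAG00000041064 was 1972 FPKM in brainstem replicate 4, while the other 5 brainstem libraries had 707 to 1169 FPKM. ENSMFAG00000010683 had 3.09 FPKM in P0D0 replicate 1, against 0.689 to 1.29 FPKM in the other 7 libraries. ENSMFAG00000046599 had 15.1 FPKM in P1D7 replicate 4, against 7.64 to 10.35 FPKM in the other 5. Of 60 groups of values examined, 3 held a library with a gap to its nearest neighbour beyond Dixon's 95% critical value for the range of the group, and chance gives about 1 in 20.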

How the results depend on the processing

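The selection gave 64 members with CPM ratios (62 shared), 69 with TMM-scaled CPM (52 shared) and 64 with medians in place of means (51 shared). With each of the 22 cortical libraries left out in turn it gave 60 to 68, at least 55 of them shared, and 38 members were selected in all 22. The median rise and the median P1D7 to P0D7 ratio moved by less than the spread between libraries throughout. The limits of the selection bound both medians, so their steadiness is no check of the result.

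For brainstem minus hippocampus, the replicate block raised the genes called from 0 to 533 and the members from 0 to 12, DESeq2 gave 8 genes, and DESeq2 with the replicate block gave 758 genes and 20 members. With the block, 64, 408, 110, 69, 126 and 535 genes were called without brainstem replicates 1 to 6, of which 0, 5, 0, 0, 0 and 10 were members, and 572, 66, 137, 127, 269, 112 and 635 genes without hippocampus replicates 1 to 7, of which 12, 0, 0, 1, 2, 1 and 13 were members. The cause was not tested. Without the block and each library left out, 0 were called. For striatum minus hippocampus, the replicate block gave 4 genes, DESeq2 4 and DESeq2 with the block 66, and leaving out each library gave 0 to 1. For brainstem minus striatum DESeq2 with the block gave 4. Against cortex, given as a description, the block raised the members past the thresholds from 0 to 3 in brainstem, 1 to 8 in hippocampus, 0 to 2 in striatum and 1 to 5 in cerebellum, against 3.26%, 2.69%, 2.18% and 2.29% of all genes with the block. No named fold change reversed. The split by preparation of ENSMFAG00000039121 was lost, with 0 members, when the lower limit was 0.2 FPKM. The fits with the block and other changes, the split by preparation and the preparations left out were chosen after seeing the data. Depth limits the members under 20 counts in P0D0.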
